A study of Bos taurus with 8 samples.

Results

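The genes described here are the monocarboxylate transporters SLC16A1 (MCT1), SLC16A3 (MCT4), SLC16A7 (MCT2) and SLC5A8 (SMCT1) and the membrane proteins basigin (BSG) and embigin (EMB), which escort some of these transporters to the cell surface. They were chosen by name, and a probe belonged to one of them when its RefSeq accession carried that symbol in the bovine reference. Of the 6 genes, 4 had a probe on the array, among 7788 named genes in all, and these 4 genes had 5 of the 21475 probes. SLC5A8 and EMB were matched to no probe and have no values here. RNA came from rumen papillae of 4 female Holstein cows with a rumen cannula, each sampled once on the low-concentrate diet (LC; 40% concentrate feed) and once on the high-concentrate diet (HC; 70% concentrate feed), at 4 h after a meal on day 21. Cows 1 and 2 received LC in period 1 and HC in period 2, and cows 3 and 4 received HC in period 1 and LC in period 2. Each of the 8 samples had its own array, 4 per diet, without pooling of cows. In the authors' table of normalized values, the columns of cows 1 and 2 followed the scanner data of the other of these cows on both diets, and which source names them rightly cannot be told, so cows 1 and 2 may be exchanged wherever they are given singly. All arrays of a period shared a slide, so the effects of slide and period cannot be told apart.

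The values are quantile-normalized log2 signals, the mean of the spots of a probe, and a log2 fold change is HC minus LC. Differences were tested with limma in a model of diet, period and interaction, and a probe was called where the unadjusted p was under 0.05 and the signals differed at least 1.5-fold. Adjustment of p (Benjamini-Hochberg) was across the 21475 probes. By the test of the scanner software, 76.9 to 81.2% of the probes on an array were well above background. The papillae carried the markers of a squamous epithelium, since KRT14, KRT6A, IVL, DSP, DSG1, DSG3 and PKP1 were well above background on each of the 8 arrays, while TP63 was so on no array. Markers of fibroblasts (6 of 6), smooth muscle (6 of 6), endothelium (2 of 2) and leukocytes (4 of 6) were so on every array too, so the RNA was that of whole papillae. In such tissue, fewer cells of a type and less RNA per cell cannot be told apart.

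The SLC16 transporters named here move lactate, pyruvate, ketone bodies and short-chain fatty acids across a membrane together with a proton, while SLC5A8 couples the same substrates to sodium. SLC16A1 and SLC16A3 need basigin to leave the endoplasmic reticulum, and SLC16A7 pairs with embigin. In rumen epithelium, which absorbs the acids of fermentation and turns butyrate into ketone bodies, SLC16A1 is known as a route for ketone bodies, lactate and acetate towards the blood. Concentrate feeding raises the supply of these acids, so the comparison asks whether the transcripts of their carriers differ between the diets.

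None of the 4 measured genes was called for diet, against 0.922% of all probes, and the LC and HC arrays overlapped for each of them, while they did not overlap for 1.6% of all probes. At an unadjusted p under 0.05, limma found 0 of the 4 genes, against 3.65% of all probes. The general linear model without moderation found 0 of the 4 as well, against 891 of all 21475 probes. The adjusted p from limma was 1.00 for each gene. No gene moved in the same direction in 4 of 4 cows, which 11% of all probes did. For each of the 4 genes, the 95% interval of the diet difference lay within the 1.5-fold limits, on the assumption that limma's error holds for these arrays. That of SLC16A3 did so narrowly, with a lower end of -0.568 against a limit of 0.585 in log2 size. Without moderation its standard error was 0.26 instead of 0.22, and an interval from that error, with 4 residual degrees of freedom, passes the limits. For SLC16A7, the standard error was 0.15 here but 0.28 in a limma model without the interaction. An interval from that larger error passes the limits too.

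**Figure D1:**
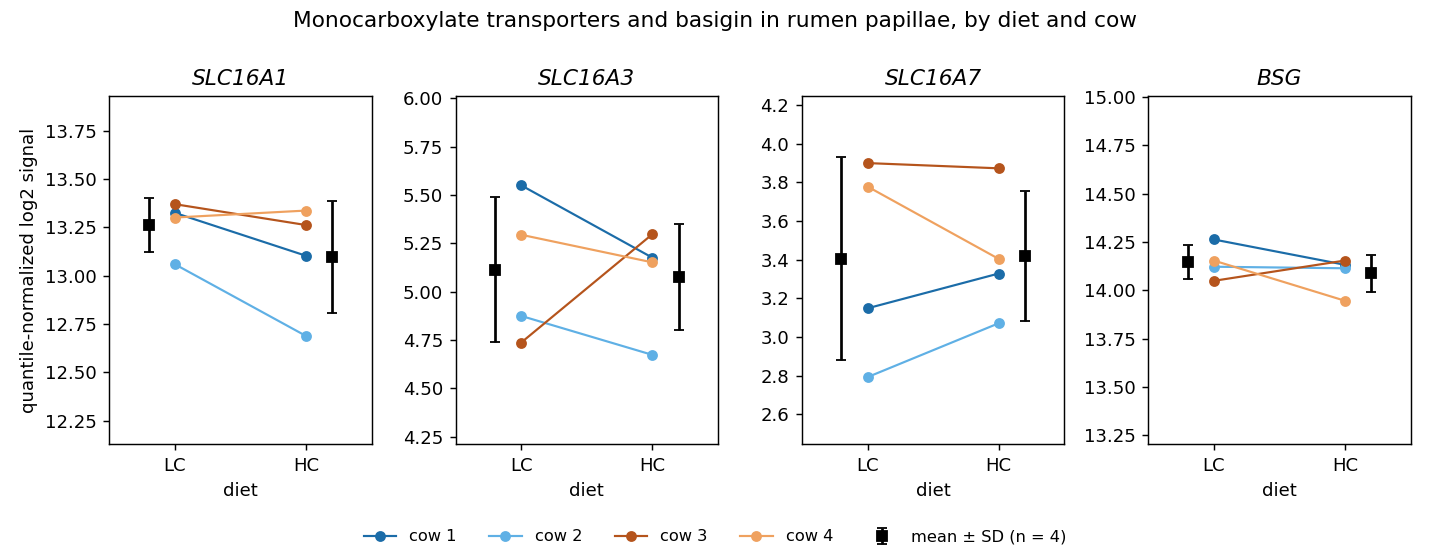
Each panel plots the quantile-normalized log2 signal of the brightest probe of a gene (vertical axis, of equal length in all panels) on the LC and the HC diet, with a line for each cow and squares with bars for the mean ± SD of the 4 arrays. SLC16A1 was lower on HC in cows 1, 2 and 3, the SLC16A7 lines of cows 3 and 4 lie above those of cows 1 and 2 on both diets, and the BSG values all lie between 13.95 and 14.26.

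SLC16A1 (NM_001037319), the main proton-coupled carrier of lactate and ketone bodies in many tissues, was well above background on all 8 arrays. On LC its log2 signal was 13.32, 13.06, 13.37 and 13.30 in cows 1 to 4, and on HC it was 13.10, 12.69, 13.26 and 13.34. The lowest signal was that of cow 2 on HC, and the next lowest that of the same cow on LC. SLC16A1 averaged 13.26 ± 0.14 on LC and 13.10 ± 0.29 on HC (SD, n = 4 arrays each). This is a log2 fold change of -0.17 with a standard error of 0.13 and a 95% interval of -0.47 to 0.14, and limma gave it an unadjusted p of 0.237. The exact two-sided permutation p over the arrays was 0.40, and the smallest that 4 arrays against 4 allow is 0.0286. Within cows 1 to 4, the signal on HC differed from that on LC by -0.22, -0.37, -0.11 and 0.04. The exact sign-flip p over these 4 differences was 0.25, and with 4 differences this test cannot give a p under 0.05. On the linear scale, the interval runs from a 1.39-fold lower to a 1.10-fold higher signal on HC. The difference between the diets was 0.11 among the arrays of period 1 and -0.44 among those of period 2, and within a period the diets came from different cows. The test of that difference, the interaction, gave an unadjusted p of 0.0726 and an adjusted p of 0.524 in limma.

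SLC16A3 (NM_001109980), known for the export of lactate from strongly glycolytic cells such as white muscle and activated leukocytes, gave a signal that was well above background on all 8 arrays. The log2 signals were 5.55, 4.87, 4.74 and 5.29 on LC in cows 1 to 4, and 5.18, 4.67, 5.30 and 5.15 on HC. The highest and the second lowest of the 8 values were both on LC, so the groups lay across each other. SLC16A3 averaged 5.11 ± 0.38 on LC and 5.07 ± 0.28 on HC (SD, n = 4 arrays each). The log2 fold change of -0.04 had a standard error of 0.22 and a 95% interval of -0.57 to 0.49, with p at 0.862 in limma before adjustment and 0.886 by exact permutation. Cow 3 was higher on HC by 0.56, and the other 3 cows differed by -0.37, -0.20 and -0.14. The mean change turned positive when single arrays were left out, and its log2 value became 0.13 without the LC array of cow 1, 0.10 without that of cow 4 and 0.09 without the HC array of cow 2. The paired spots of this SLC16A3 probe differed by up to 0.79 (LC array of cow 2), with a median gap of 0.24 over the arrays. Leukocyte markers, of interest because these cells express SLC16A3, had a summed log2 signal of 10.16 to 10.64 on LC and 10.11 to 11.05 on HC. A sum follows its brightest gene, and the 4 markers measured on all 8 arrays were each higher on HC. Their log2 fold changes were 0.31 for CD14, 0.30 for CD3E, 0.14 for CD68 and 0.05 for CD2. The lowest unadjusted p from limma among them was 0.0759, for CD3E. The part of leukocytes in the SLC16A3 signal was not tested.

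SLC16A7 (NM_001076336), a high-affinity carrier known for the uptake of lactate and pyruvate, was measured by 2 probes near the lower end of the array's range. The brighter probe was well above background on each of the arrays. Its log2 signals on LC were 3.15, 2.79, 3.90 and 3.78 in cows 1 to 4, and on HC they were 3.33, 3.07, 3.87 and 3.40. These lie 0.41 to 1.58 above the lowest signal that counted as well above background on the same array. SLC16A7 averaged 3.41 ± 0.52 on LC and 3.42 ± 0.33 on HC (SD, n = 4 arrays each), with HC minus LC at 0.01, a standard error of 0.15 and a 95% interval of -0.35 to 0.38. For this difference p was 0.928 in limma before adjustment and 0.971 by exact permutation. Cows 1 and 2 had a higher signal on HC, by 0.18 and 0.28, while cows 3 and 4 differed by -0.03 and -0.37. A mean change this close to 0 took either sign over the settings tried. The dimmer probe was well above background on the LC array of cow 4 and on no other array, so it measured no difference between the diets.

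While the SLC16A7 means of the diets nearly coincided, the signals of single cows did not. The 4 arrays of cows 3 and 4 lay between 3.40 and 3.90 and the 4 arrays of cows 1 and 2 between 2.79 and 3.33, with no overlap, whichever diet the cow received. Arrays of these pairs of cows did not overlap for 5.63% of all probes. The mean was 3.74 ± 0.23 (SD, 4 arrays of 2 cows) for cows 3 and 4 and 3.09 ± 0.22 (SD, 4 arrays of 2 cows) for cows 1 and 2, a difference of 0.65 (standard error 0.15), or 1.57-fold. This contrast is the interaction of diet and period, and its unadjusted p from limma was 0.00461, with an adjusted p of 0.358, while 10.2% of all probes had an unadjusted p under 0.05 for it. The contrast is one between animals, although the fit counts both arrays of a cow as separate samples. A limma fit to 1 mean per cow, chosen after the values were seen, gave an unadjusted p of 0.0208 and an adjusted p of 0.817, and 5.96% of all probes had an unadjusted p under 0.05 in it. An exact permutation test over 2 cows against 2 cannot give a p under 0.333. With normexp background correction and its offset of 50, which compresses low signals, the difference between these cows was 0.087 (unadjusted p 0.0522 from limma). The cows also differed in the order of the diets, which cannot be told apart from the animals themselves.

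The dimmer SLC16A7 probe, which has the same accession, had log2 signals of 1.13 to 1.36 on the 4 arrays of cows 1 and 2, none of them well above background. On the 4 arrays of cows 3 and 4 it had 2.12 to 3.61, with 1 well above background. These values are given as read and without a test, because signals below the background limit measure no difference. The highest of its signals, 3.61 on the HC array of cow 3, came from spots that differed by 2.43. In the authors' table of normalized values it stands at 1.6174, and the mean of the other 3 HC arrays of that table is 1.6174 too. The value there was therefore not read as a separate measurement. The dimmer probe therefore adds nothing to the split seen with the brighter one.

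**Figure D2:**
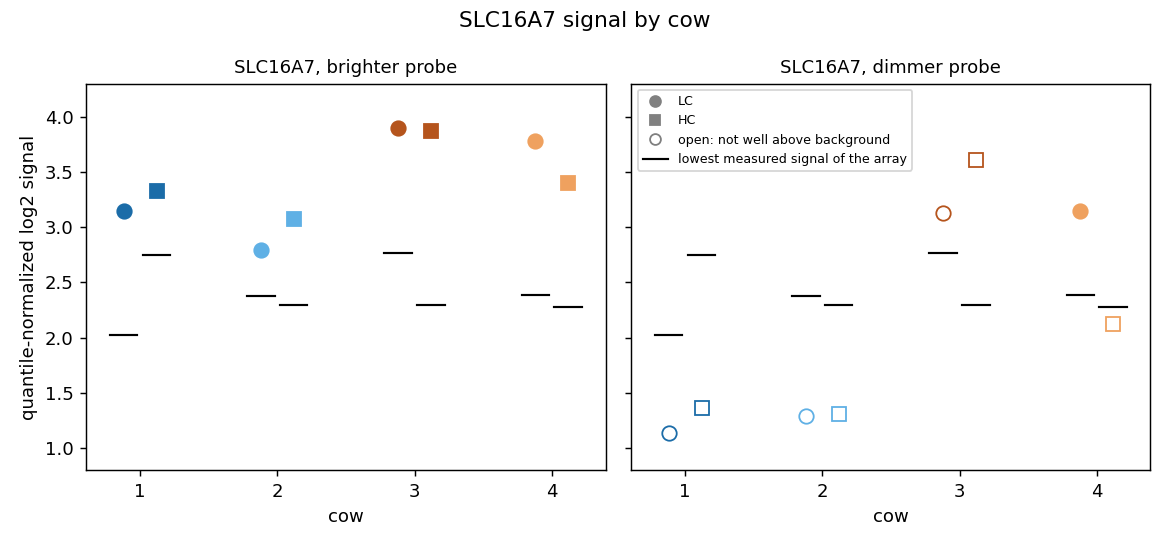
Quantile-normalized log2 signal (vertical axis) of the brighter and the dimmer SLC16A7 probe for each cow (horizontal axis), with circles for LC, squares for HC, open symbols where the probe was not well above background, and a black line at the lowest signal that counted as well above background on that array. In both panels the 4 arrays of cows 3 and 4 lie above the 4 arrays of cows 1 and 2, and 7 of the 8 symbols of the dimmer probe are open.

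Values of cell type markers were set beside this split. The summed log2 signal of the 6 fibroblast markers was 13.70 to 14.06 in cows 1 and 2 and 13.77 to 14.22 in cows 3 and 4. It was 14.18 to 14.51 and 13.97 to 14.27 for the 6 smooth muscle markers, and 10.48 to 11.05 and 10.11 to 10.82 for the 6 leukocyte markers on the array, of which ITGAM was well above background on no array. For the 8 keratinocyte markers it was 19.33 to 19.53 and 19.02 to 19.51, and for the 2 endothelial markers 9.31 to 9.60 and 9.44 to 10.07. The 4 erythroid markers on the array had 12.18 to 13.32 and 11.56 to 12.73, and the 2 markers of nerve and glia 4.43 to 5.09 and 4.42 to 4.65. The ranges overlapped in each of these lists. A sum follows its brightest genes, so single markers are given too, as the mean of cows 3 and 4 minus that of cows 1 and 2 and without a test. DSG1, a desmosomal cadherin, differed by 1.11, more than SLC16A7 did, while the other 6 measured keratinocyte markers lay between -0.28 and 0.02. All 6 smooth muscle markers were on the lower side in cows 3 and 4, among them DES with -0.61 and ACTG2 with -0.51. So were both measured erythroid markers and the 4 measured leukocyte markers, of which CD14 had -0.48, while COL3A1, a fibroblast collagen, had 0.37. The part of these cell types in the SLC16A7 split was not tested.

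BSG (NM_001075371), the immunoglobulin-like glycoprotein that SLC16A1 and SLC16A3 depend on, was measured on each of the 8 arrays, always well above background. Its log2 signals were 14.26, 14.12, 14.05 and 14.15 on LC in cows 1 to 4, and 14.13, 14.11, 14.15 and 13.95 on HC. The highest value was on LC and the lowest on HC, but the other 6 values of the diets lay within the same range of 14.05 to 14.15. BSG averaged 14.15 ± 0.09 on LC and 14.09 ± 0.09 on HC (SD, n = 4 arrays each), so that HC lay -0.06 from LC, with a standard error of 0.09 and a 95% interval of -0.29 to 0.17. The p was 0.544 in limma before adjustment and 0.40 by exact permutation. The interval runs from a 1.22-fold lower to a 1.12-fold higher signal on HC. The spread of BSG over the 8 arrays (SD 0.09) was smaller than that of most probes, at percentile 5.4 of the SDs of 16030 probes that each array measured, whose median was 0.20.

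How far the cows lay apart was not alike for the 4 genes, as a description without a test. The means of the cows, over both diets, spanned 0.15 for BSG, 0.45 for SLC16A1, 0.59 for SLC16A3 and 0.95 for SLC16A7 on the log2 scale. The mean size of the change from LC to HC within a cow was 0.11, 0.18, 0.32 and 0.21 in the same order. SLC16A7 was the gene with the widest gap between these measures, and its SD over the 8 arrays (0.41) was at percentile 89.6 of the 16030 probes. The SD was at percentile 77.3 for SLC16A3 and 58.9 for SLC16A1. The order of the cow spans is the reverse of that of the signals, whose means were 14.12 for BSG, 13.18 for SLC16A1, 5.09 for SLC16A3 and 3.41 for SLC16A7. The percentiles were taken over probes of every signal, and the part of signal in these spreads was not tested. The order is therefore not given as a trait of the genes. Signals of different probes were not read as levels of their genes, since probes bind with different strength.

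**Figure D3:**
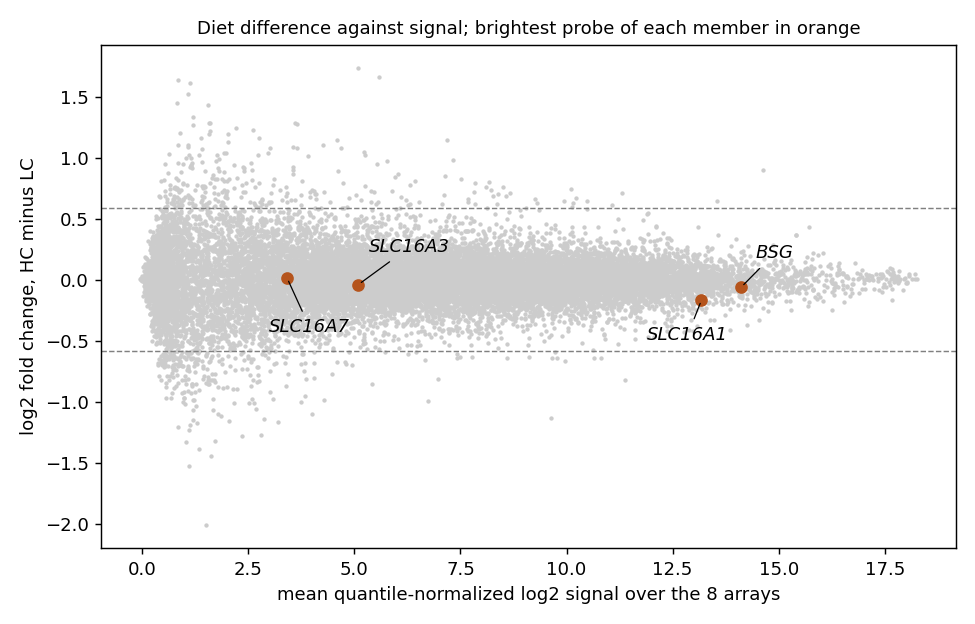
Log2 fold change, HC minus LC (vertical axis), against the mean quantile-normalized log2 signal over the 8 arrays (horizontal axis), with a grey point for each of the 21475 probes, orange points for the brightest probe of the 4 measured genes and dashed lines at a fold change of 1.5. The 4 genes lie between -0.17 and 0.01, inside the dashed lines.

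Between the periods, which are also the slides, none of the 4 genes was called, against 3.86% of all probes, and none had an unadjusted p under 0.05 in limma, against 12.3%. The log2 difference, period 2 minus period 1, was -0.13 for SLC16A1, -0.25 for SLC16A3, 0.21 for SLC16A7 and -0.01 for BSG, with unadjusted p values of 0.205 to 0.928 from limma. Scaling to the 75th percentile brought the SLC16A7 value to 0.0054.

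Other genes of monocarboxylate transport and use were followed in 7 lists. Of their 96 symbols, 53 had a probe, of which 48 were well above background on every array. None of the 53 was called for diet and none had an unadjusted p under 0.05 from limma, against 3.65% of all probes. The 48 measured genes had a median log2 fold change of -0.06, against 0.00 over all probes, and lay between -0.25 and 0.32. Of them, 2 were higher and 3 lower on HC in 4 of 4 cows, together 10.4%, against 11% of all probes. They included ACSS1, which was higher, and ACSS2, LDHB and HSD17B10, which were lower, the last a mitochondrial dehydrogenase named after its values were seen, whose log2 fold change was -0.09.

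Among other transporters of the SLC16 and SMCT families, SLC16A13 and SLC16A6 were measured on all 8 arrays. SLC16A13 averaged 6.52 ± 0.12 on LC and 6.33 ± 0.23 on HC (SD, n = 4 arrays each), a log2 fold change of -0.20 for which limma gave an unadjusted p of 0.196. SLC16A6 had a log2 fold change of 0.07. SLC16A10, a carrier of aromatic amino acids, was well above background on 2 LC arrays and 1 HC array, and SLC16A4 and SLC5A12, the low-affinity sodium-coupled relative of SLC5A8, on no array.

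Among other proteins linked to basigin or embigin, 6 of 10 had a probe and all 6 were measured on all 8 arrays, with log2 fold changes of -0.07 to 0.12. NPTN, the close relative of basigin that also escorts SLC16A7, had the highest value, 0.12 (unadjusted p 0.209, limma), and was higher on HC in 3 of 4 cows. SLC7A5, which with its partner SLC3A2 forms an amino acid exchanger, had 0.04. LGALS3, a galectin that binds glycoproteins, had the lowest, -0.07, and SLC2A1, a glucose transporter, had -0.06.

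The enzymes that make or use the substrates held no gene past the test either. Of the lactate and pyruvate genes, 9 of 16 had a probe, with log2 fold changes of -0.20 to 0.32. LDHB, a lactate dehydrogenase subunit, was lower on HC in 4 of 4 cows, with a mean change of -0.20 (standard error 0.18). The limma p before adjustment was 0.321. PDK2 had a log2 fold change of -0.11. PDK4, a kinase that restrains pyruvate dehydrogenase, had 0.32 (standard error 0.28; unadjusted p 0.296 from limma), and its relative PDK3 had 0.11. Of the ketone body genes, 4 of 8 had a probe. BDH2, a hydroxybutyrate dehydrogenase, had a log2 fold change of 0.08 and AACS, an acetoacetyl-CoA synthetase, -0.12.

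Of the symbols listed for activating short-chain fatty acids and handling propionate, 8 of 15 had a probe and 7 were measured on all 8 arrays. The listed symbols MMUT and MUT name the same gene. ACSS2, the cytosolic acetyl-CoA synthetase, was lower on HC in 4 of 4 cows, and its log2 fold change was -0.21 (standard error 0.11). ACSS1, its mitochondrial counterpart, had the higher signal on HC in 4 of 4 cows, with a log2 fold change of 0.17 (standard error 0.09). Their unadjusted p values in limma were 0.0930 and 0.0951. MCEE had -0.11 and ACSM1 0.05. The adjusted p from limma was 1.00 for both ACSS2 and ACSS1, so neither difference was past the test.

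Proton, bicarbonate and anion exchangers, which work beside the transporters, had log2 fold changes of -0.24 to 0.15 over 8 measured genes, of 9 with a probe and 18 listed. SLC4A7, a sodium bicarbonate cotransporter, had the lowest of them, -0.24 (standard error 0.11), which gave an unadjusted p of 0.0639 in limma, and SLCO2A1, a prostaglandin carrier, had -0.11. SLC26A3, a chloride bicarbonate exchanger, had 0.13 and the carbonic anhydrase CA2 0.15. Among sensors and transcription factors, 12 of 17 genes were measured. FFAR3, a receptor for short-chain fatty acids, had the lowest, -0.25 (standard error 0.25), and USF1 and USF2, which are transcription factors, had 0.25 and -0.20. For period, 4 of the 53 genes had an unadjusted p under 0.05 from limma, against 12.3% of all probes. They were SLC7A5 (0.32 higher in period 2), ACSM1 (-0.31, where a negative value is a lower signal in period 2), HCAR1, the lactate receptor (-0.32), and SLC5A12, which was well above background on no array. HCAR1 was named after its values were seen.

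**Figure D4:**
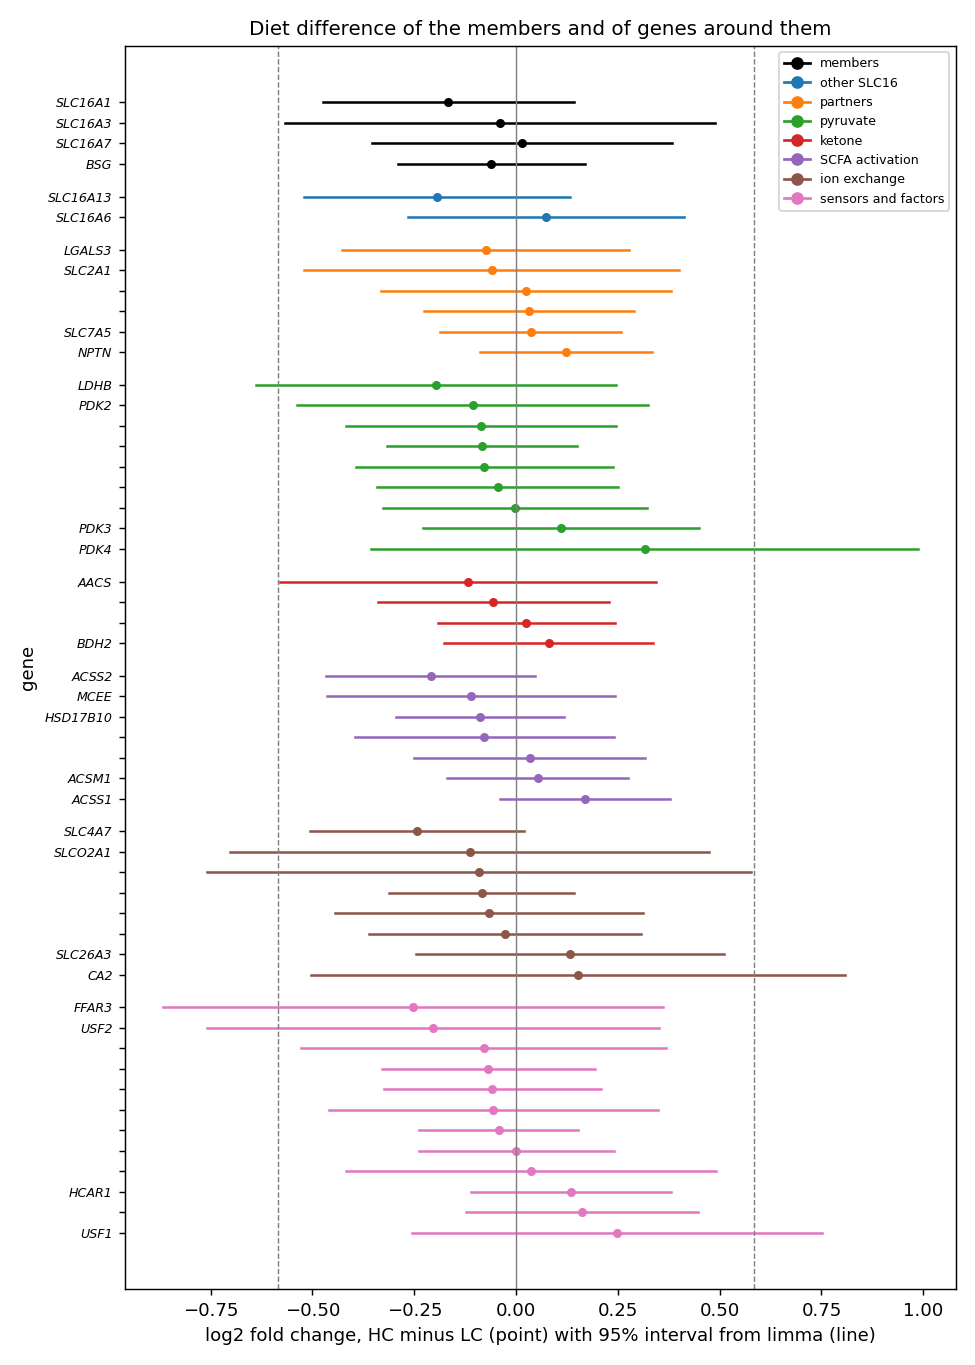
Log2 fold change, HC minus LC, with its 95% interval from limma (horizontal axis) for the 4 measured genes (black) and for 48 genes of 7 lists (colours) that were well above background on all 8 arrays, with dashed lines at a fold change of 1.5 and names beside the genes given in the text. Each of the 52 intervals includes 0, and for 40 of the 48 list genes the interval lies within the dashed lines.

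Among 6465 other named genes measured on all 8 arrays, those with the most similar pattern over the 8 arrays were found for each of the 4 genes, by Pearson r as a description. The arrays share 4 cows and 2 slides, and the highest of many values of r is high by its choice. For SLC16A7 they were RASSF8 (r = 0.98) and RARRES2 (r = 0.97), which encodes chemerin. RARRES2 had log2 signals of 12.11 to 13.31 in cows 3 and 4 and 10.82 to 11.67 in cows 1 and 2, the same separation of the cows as SLC16A7. A gene chosen for its likeness to SLC16A7 on these arrays is likely to share it, and 5.63% of all probes had no overlap between these cows. For SLC16A1 they were NGRN (r = 0.95) and LOC281806 (r = 0.94), for SLC16A3 CFAP298 (r = 0.95) and NLRP5 (r = 0.91), and for BSG HMGN4 (r = 0.94) and C11H2orf49 (r = 0.93).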

How the data were processed

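RNA of rumen papillae had been hybridized to 8 bovine arrays in 1 colour, whose labels give diet, cow and period. For each array, the authors deposited the intensity of each spot from Agilent Feature Extraction 10.7.3.1, background-subtracted, with low values replaced by a small positive number and arrays not normalized to each other. A deposited table holds quantile-normalized log2 values that the authors made, with a median of 6.80 in each column over the probes used here, which served as an alternative. In it, the columns of cows 1 and 2 followed the scanner file of the other cow on both diets, which leaves each sample's diet and the pairing as they are.

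Of 44407 spots, 42990 were no controls. The 0 to 13 outlier spots per array were left out, no spot was saturated, and the log2 intensities were quantile-normalized and averaged to 21475 probes without a filter. The median intensity was 92.1 to 132 per array, and the number of arrays limits the precision. A probe was well above background on an array where more than 50% of its spots were. Of 10176 probes with a RefSeq accession, 8297 were named through the reference's gene table (ARS-UCD2.0). The array was designed on HGSC Btau_3.1, so no positions are given. The brightest probe of a gene was used.

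Diet, period and interaction were fitted with limma 3.58.1 in R 4.3.3 (4 residual and 2.26 prior degrees of freedom), a model taken from the paper. The code was also run on simulated arrays, drawn independently and without effects of cow, slide or period. That run does not test how the model holds for this design. Intervals use 6.26 degrees of freedom. Figures used Python 3.11.15, pandas 2.3.3 and matplotlib 3.10.9. The pairing by cow comes from the labels. Deviations from the diet's mean correlated by 0.285, 0.298, 0.467 and 0.113 between the arrays of cows 1 to 4, across 16030 probes. Between arrays of different cows they correlated by -0.237 to 0.185, so the value of cow 4 lay within that range. The genes and lists were chosen with earlier results of these data known. From each list, the 2 genes with the highest and the 2 with the lowest log2 fold change among those measured on all 8 arrays are named, and for likeness the 2 genes with the highest r. Some genes that this rule names are not reported here.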

Additional observations from a re-analysis of the deposited data

Results flagged for a closer look

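The gap between the HC and the LC arrays of SLC16A7 had opposite signs in period 1 and period 2, but within a period the diets came from different cows. Within cows 1 to 4, HC minus LC was 0.18, 0.28, -0.03 and -0.37. In limma, the interaction of diet and period had a log2 value of -1.31 (period 2 minus period 1) for the brighter probe, with an unadjusted p of 0.00461 and an adjusted p of 0.358. HC minus LC was 0.67 among the 4 arrays of period 1 and -0.64 among those of period 2. For the dimmer SLC16A7 probe, which was well above background on 1 array, the value was -3.46, which is no measured size and adds nothing to that of the brighter probe. The same contrast sets cows 1 and 2 against cows 3 and 4, and the fit counts both arrays of a cow as separate samples. With 1 mean per cow, limma gave the brighter probe an unadjusted p of 0.0208 and an adjusted p of 0.817. A change of the diet effect with period cannot be told apart from a difference between these cows.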

How the results depend on the processing

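The diet difference of SLC16A1, SLC16A3, SLC16A7 and BSG was called under none of the settings tried, and its unadjusted p was at least 0.0674. As each array was left out, the log2 fold change ranged from -0.27 to -0.06 for SLC16A1, -0.21 to 0.13 for SLC16A3, -0.10 to 0.13 for SLC16A7 and -0.11 to -0.01 for BSG, and the period difference from -0.23 to -0.027 for SLC16A1, -0.42 to -0.079 for SLC16A3, 0.098 to 0.33 for SLC16A7 and -0.061 to 0.043 for BSG. The SLC16A7 value also changed sign with scaling to the 75th percentile (-0.031) and in the deposited table (-0.00076). It was 0.67 within period 1 and -0.64 within period 2, where the diets came from different cows. The dimmer probe (-0.076) and the mean of both probes (-0.031) rest on signals not well above background on 7 of 8 arrays and bear on no sign. The BSG period difference was 0.0060 after normexp correction. With cow as a replicate block, the diet values (-0.17 for SLC16A1) cannot change, since each cow was sampled once on each diet in a balanced order. Only their errors can, and 276 probes were called. Before adjustment, p was then 0.126 for SLC16A1, 0.80 for SLC16A3, 0.894 for SLC16A7 and 0.569 for BSG, and the block changed no call of these genes.

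The difference of SLC16A7 between cows 3 and 4 and cows 1 and 2 ranged from 0.54 to 0.77 over the fits without 1 array, and was 0.087 (unadjusted p 0.0522) after normexp correction, whose offset of 50 compresses low signals. Over all probes, 198 were called for diet, 8 with normexp correction, 415 in the deposited table, 75 with dim probes removed, 105 without moderation and 239 to 404 when single arrays were removed. Of the calls, 53.5% were higher on HC, 66.7% with dim probes removed, 37.5% with normexp correction and 32.9 to 63.6% as each array was left out. The normexp correction used the median signal of a spot.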
